A study of Mus musculus with 9 samples.

Results

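Line 3 is 1 of 3 mouse T-cell leukaemia lines carrying an Lmo2 transgene, and its expression profile was set against those of lines 175 and 261. A probe was taken as a member where its detection p-value was under 0.05 in at least 1 line and its normalized log2 intensity in line 3 was more than 2 units, that is 4-fold, above both other lines or below both. Of 45281 probes on the array, 18513 were detected in at least 1 line, and 583 of these were members. They comprised 337 probes higher in line 3 (1.82% of the detected probes) and 246 lower (1.33%). Taking 1 probe per gene, 347 of 9836 measured genes were members (3.53%), with 190 higher in line 3 (1.93%) and 157 lower (1.6%). These values chose the members and are given as a description. Each line was measured on 1 array, so no difference between the lines has a replicate error and none was tested.

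Expression was measured on Illumina MouseWG-6 v2.0 bead arrays, on which each bead type carries 1 probe that binds labelled RNA. The 9 arrays hold Lmo2 line 3, line 175 and line 261, 3 thymus samples labelled Lmo2 transgenic and 3 labelled wild type, all on the C57BL/6 background, with no age given. The lines came from T-cell leukaemias of CD2-Lmo2 mice, in which the CD2 promoter, active in T cells, drives the transgene, and the title of the series asks whether such leukaemias still need Lmo2 once established. The labels do not state that the thymus arrays come from separate animals. The lines are cultured cells and the thymus is a whole organ, so in thymus fewer cells of a type and less RNA per cell cannot be told apart.

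LMO2 is a cofactor of blood stem and progenitor cells. It bridges LDB1 and transcription factors that bind DNA, among them LYL1, TAL1, GATA factors and E proteins, and its expression normally ends when thymic progenitors enter the T lineage. During that commitment NOTCH1 signalling activates genes such as Hes1, Dtx1 and Ptcra, and cells then cut and rejoin their T cell receptor genes with the RAG1 and RAG2 enzymes. Early thymic progenitors still express stem cell genes such as Lyl1 and Hhex together with the adhesion receptor CD44, and lose them as they commit and Rag genes come on.

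Promoters are shown for 3 genes on which the comparison turns, Ptcra and Rag1, lower in line 3, and Cd44, higher in line 3. Each covers 250 bases before to 50 bases after the RefSeq start in the GRCm38.p6 build, read 5′ to 3′ on the strand of the gene. Capitals mark matches on either strand. The letters searched were CAGCTG, an E-box form bound by E proteins and their partners, and CATCTG, another E-box form. They were also AGATAA for GATA factors, TGTGGT for RUNX factors and, for the ETS family, CCGGAAGT. The last was TGGGAA, the core bound by RBPJ, which is the DNA-binding partner of NOTCH.
Ptcra, chr17:46763663-46763962, strand -: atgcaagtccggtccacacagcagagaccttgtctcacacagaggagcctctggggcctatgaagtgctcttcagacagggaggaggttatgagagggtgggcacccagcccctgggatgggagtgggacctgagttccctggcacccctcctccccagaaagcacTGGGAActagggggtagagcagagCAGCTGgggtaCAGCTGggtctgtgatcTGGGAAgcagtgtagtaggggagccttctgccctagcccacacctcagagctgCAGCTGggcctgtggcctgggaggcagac
Rag1, chr2:101649483-101649782, strand -: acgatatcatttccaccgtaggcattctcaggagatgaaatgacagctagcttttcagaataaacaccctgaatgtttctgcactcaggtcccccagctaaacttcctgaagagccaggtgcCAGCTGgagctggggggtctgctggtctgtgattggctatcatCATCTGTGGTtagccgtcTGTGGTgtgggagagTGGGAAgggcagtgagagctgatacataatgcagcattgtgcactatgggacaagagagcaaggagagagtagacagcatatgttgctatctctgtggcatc
Cd44, chr2:102901616-102901915, strand -: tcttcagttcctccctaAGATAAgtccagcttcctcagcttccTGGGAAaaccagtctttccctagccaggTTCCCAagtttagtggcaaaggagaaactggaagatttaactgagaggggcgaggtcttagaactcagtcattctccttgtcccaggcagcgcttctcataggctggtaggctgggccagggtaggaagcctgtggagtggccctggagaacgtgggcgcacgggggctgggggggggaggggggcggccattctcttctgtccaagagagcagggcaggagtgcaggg
The Ptcra promoter held 3 matches to CAGCTG and 2 to the RBPJ core. Rag1 had 1 match to each E-box form, 2 to the RUNX motif and 1 to the RBPJ core, and its CATCTG match overlapped a RUNX match. Cd44 had 1 match to the GATA motif and 2 to the RBPJ core.

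RefSeq promoters were found for 264 of the 347 member genes. TGGGAA occurred in 21.7% of the promoters of genes higher in line 3 and 29.9% of those of genes lower in line 3, against 22.7% for all measured genes and 25.6% of all 32817 promoters. CAGCTG was present in 16.3% and 19.4% of the same member promoters, against 14.9% for all measured genes, and CATCTG in 11.3% and 16.7%, against 11.6%. AGATAA was found in 9.36% and 4.86%, against 6.48%, and TGTGGT in 14.3% and 13.9%, against 12.6%. CCGGAAGT, an ETS form, was in 0.985% and 1.39%, against 8.42% for all measured genes. In the whole table the shares were 16.3% for CAGCTG, 17.2% for CATCTG, 11.2% for AGATAA, 16.8% for TGTGGT and 3.89% for CCGGAAGT. A match is a description of letters in the window and not a bound site.

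Line 3 stood further from the other lines than these did from each other. Over the 18513 detected probes, line 3 and line 175 differed by more than 2 log2 units at 1033 probes (5.58%) with a Pearson correlation of 0.900, line 3 and line 261 at 1119 (6.04%) with 0.894, and lines 175 and 261 at 669 (3.61%) with 0.928. These correlations are across probes, which are not independent replicates. Among pairs of thymus arrays the counts were 126 (0.681%), 783 (4.23%) and 816 (4.41%) in samples labelled transgenic, with array 2 in both larger counts, and 4 (0.0216%), 126 (0.681%) and 133 (0.718%) in wild type. The lines had similar shares of detected probes, at 35.16% in line 3, 35.03% in line 175 and 34.99% in line 261, against 38.2% to 40.8% on the arrays labelled transgenic and 39.4% to 43.0% on wild-type arrays.

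**Figure D1:**
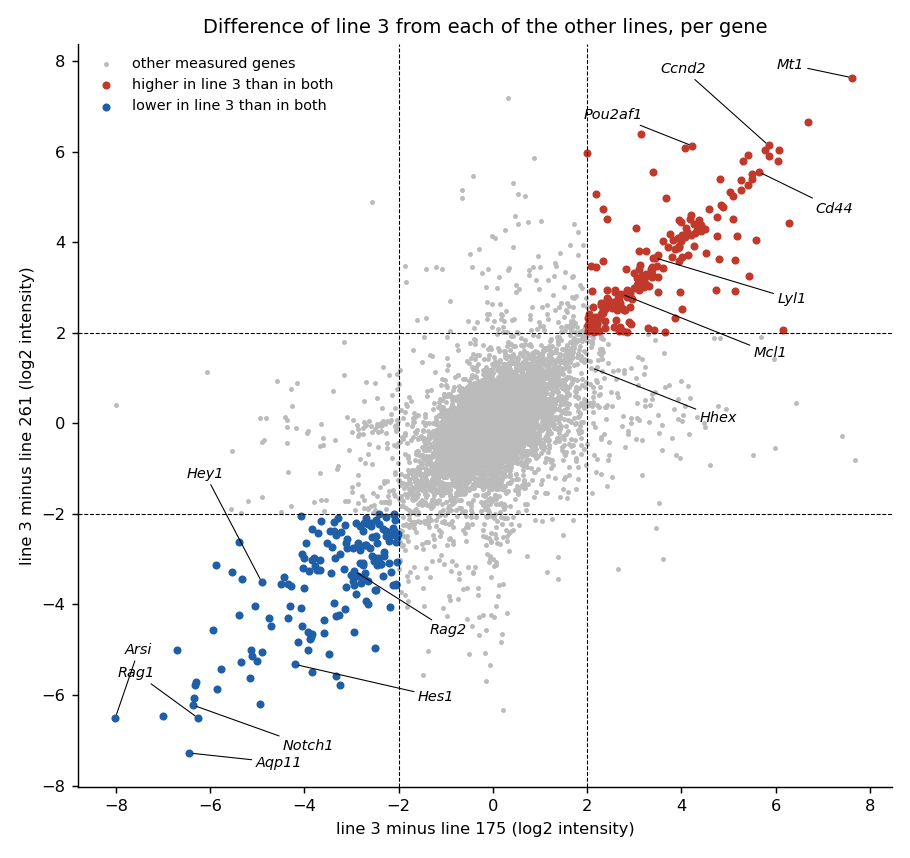
Each point is 1 measured gene, with the difference of line 3 from line 175 on the x axis and from line 261 on the y axis, both in log2 normalized intensity. Red points are the 190 genes higher in line 3 than in both lines by more than 2 units, blue points the 157 lower, grey points the other measured genes and dashed lines the threshold of 2, and Hhex lies outside the red corner because it exceeded line 261 by 1.23 only.

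Most differences set a detected side against an undetected one. Of the 190 genes higher in line 3, 130 were detected in neither line 175 nor line 261, 23 in 1 of them and 37 in both. All 157 genes lower in line 3 were detected in both other lines, and 104 were not detected in line 3. A fold between line 3 and the mean of lines 175 and 261 is given as a bound ("at least") where 1 side is undetected, so the fold from 1 of these lines alone can be smaller. The undetected side is set at the higher of that probe's own value and the lowest normalized value of a detected probe on the array, which was 5.57 in line 3, 5.58 in line 175 and 5.58 in line 261. The median size of the difference from the mean of the other lines was 3.22 log2 units for higher genes and 3.12 for lower genes, and the largest were 7.63 and 7.25.

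Notch1, Notch3 and 4 genes that act downstream of Notch were low in line 3. Of 15 measured genes in a list of Notch receptors, Notch targets and genes of the pre-T cell receptor stage, 6 were lower in line 3 and 0 higher, with a median difference of -1.07 log2 units, beside 157 lower and 190 higher of 9836 and a median of -0.01 over all measured genes. The 6 genes were Notch1, Notch3, Hes1, Hey1, Dtx1 and Ptcra, none of them detected in line 3, and each rests on 1 probe. Notch2, Hes5 and Heyl were detected in no line.

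Notch1, the receptor that drives T lineage commitment, had a log2 intensity of 5.10 in line 3, 11.46 in line 175 and 11.32 in line 261, against 12.65, 12.08 and 12.24 in thymus labelled transgenic and 12.06, 12.14 and 12.42 in wild-type thymus. Line 3 was thus the 1 array of 9 without detectable Notch1 signal, at least 56.7-fold below the mean of the other lines. Notch3, a receptor that is itself a target of NOTCH1, had 4.98 in line 3, 9.89 in line 175 and 10.03 in line 261, against 9.17, 10.28 and 8.82 in thymus labelled transgenic and 10.30, 9.74 and 9.39 in wild-type thymus. The other lines lay within the thymus range and line 3 was at least 21.0-fold below their mean.

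Hes1, a repressor switched on directly by NOTCH1, read 4.62 in line 3, 8.82 in line 175 and 9.95 in line 261, against 9.78, 10.62 and 9.54 in thymus labelled transgenic and 9.60, 9.01 and 9.31 in wild-type thymus. Dtx1, which encodes a ubiquitin ligase of the Notch pathway and is a Notch target, read 4.90 in line 3, 10.03 in line 175 and 9.91 in line 261, against 8.61, 9.79 and 9.14 in thymus labelled transgenic and 8.72, 8.29 and 8.53 in wild-type thymus. Both were at background in line 3 alone, at least 14.1-fold (Hes1) and at least 21.1-fold (Dtx1) below the mean of the other lines. Hey1, another repressor of the HES family, was different with respect to thymus. It had 5.23 in line 3, 10.13 in line 175 and 8.74 in line 261, against 4.90, 5.49 and 5.31 in thymus labelled transgenic and 4.62, 4.83 and 4.85 in wild-type thymus. Line 3 resembled thymus here, and lines 175 and 261 stood above all 6 thymus arrays.

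Ptcra encodes the pre-T cell receptor alpha chain, which pairs with a new T cell receptor beta chain. Its level was 5.07 in line 3, 11.38 in line 175 and 10.79 in line 261, against 5.08, 6.85 and 6.62 in thymus labelled transgenic and 8.97, 8.47 and 8.66 in wild-type thymus. Line 3 was at least 45.7-fold below the mean of the other lines and at the level of the lowest array labelled transgenic, while lines 175 and 261 exceeded all 6 thymus arrays.

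The remaining genes of the list were not members. Nrarp, a feedback inhibitor of Notch, was 7.90 in line 3, 9.73 in line 175 and 4.77 in line 261, so that line 3 lay between the others. Il2ra was 4.63 in line 3, 6.81 in line 175 and 4.59 in line 261, and every line was below all thymus arrays. Deptor was 5.835 in line 3, 5.21 in line 175 and 5.12 in line 261. Lef1, a transcription factor of early T cells, was 7.88 in line 3, 10.19 in line 175 and 9.21 in line 261, short of the threshold against line 261. Myc, a growth regulator that is a Notch target in T-cell leukaemia, was the other way round, with 10.47 in line 3, 8.71 in line 175 and 8.66 in line 261, against 8.53, 7.36 and 8.34 in thymus labelled transgenic and 9.26, 8.60 and 8.40 in wild-type thymus. Its difference of 1.78 log2 units was below the threshold, and line 3 was the highest of the 9 arrays. The T cell receptor subunits Cd3d, Cd3e and Cd3g differed by -0.41, -0.14 and -0.49 and the T lineage factor Bcl11b by 0.00, at levels of 12.3 to 13.2 in line 3. These T cell transcripts were thus at similar levels in the 3 lines.

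**Figure D2:**
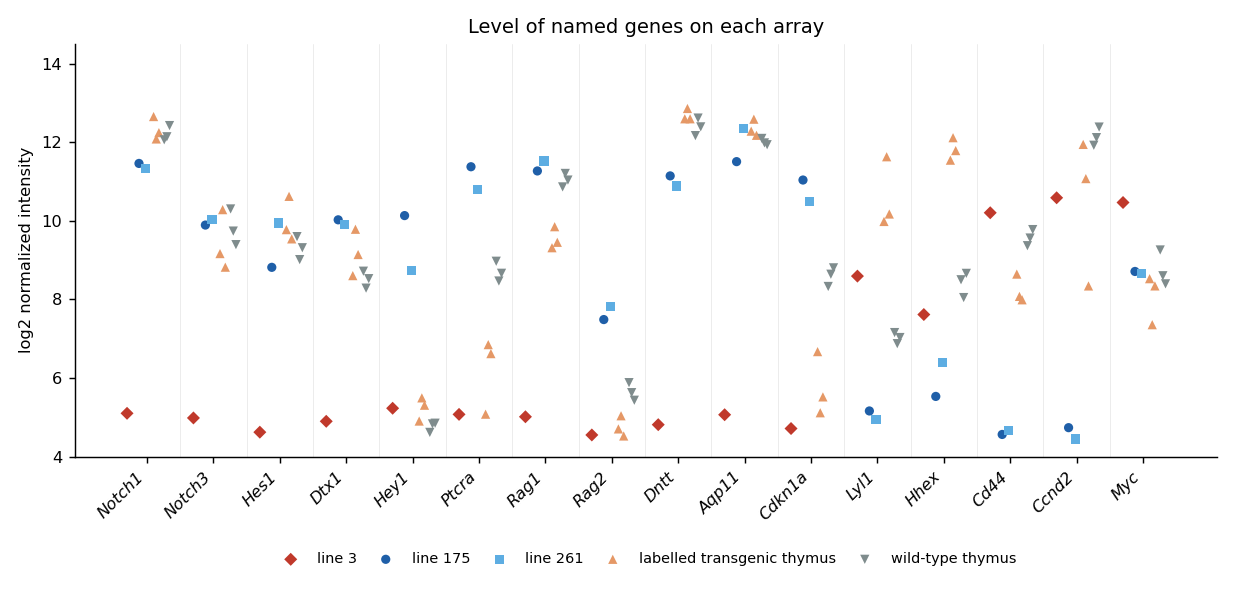
Log2 normalized intensity (y axis) of 16 named genes (x axis) on each of the 9 arrays, with 1 symbol per array: line 3, line 175, line 261, 3 thymus samples labelled transgenic and 3 wild-type thymus samples. Line 3 sits near background for Notch1 to Cdkn1a, where lines 175 and 261 are high, and above both for Lyl1, Hhex, Cd44, Ccnd2 and Myc.

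Rag1, Rag2 and Dntt, which act in lymphocytes to rearrange antigen receptor genes, were lower in line 3. Of 7 measured genes of V(D)J recombination, as this cutting and joining is called, these 3 were lower in line 3 and 0 higher, with a median difference of -0.71. Rag1, 1 subunit of the cutting enzyme, had 5.01 in line 3, 11.27 in line 175 and 11.52 in line 261, against 9.31, 9.85 and 9.45 in thymus labelled transgenic and 10.86, 11.21 and 11.04 in wild-type thymus. Dntt, which adds bases at the joins, had 4.81 in line 3, 11.14 in line 175 and 10.88 in line 261, against 12.60, 12.86 and 12.60 in thymus labelled transgenic and 12.17, 12.62 and 12.39 in wild-type thymus. Neither was detected in line 3, which was at least 56.8-fold (Rag1) and at least 43.6-fold (Dntt) below the mean of the other lines.

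Rag2, the partner of Rag1, was dimmer throughout, with 4.55 in line 3, 7.49 in line 175 and 7.81 in line 261, against 4.70, 5.04 and 4.52 in thymus labelled transgenic and 5.88, 5.63 and 5.43 in wild-type thymus. Line 3 was at least 4.23-fold below the mean of the other lines, and the signal in lines 175 and 261 lay above that of all 6 thymus arrays. The joining factors that all cells use, Xrcc6, Prkdc, Lig4 and Nhej1, differed by 0.18, 0.15, 0.18 and -0.71.

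Among 11 measured genes of double-positive thymocytes, the stage that carries both CD4 and CD8, 4 were lower and 0 higher, with a median of -1.39. Besides Rag1 and Rag2 these were Aqp11, an aquaporin, and Ets2, an ETS family factor. Aqp11 had 5.07 in line 3, 11.51 in line 175 and 12.35 in line 261, against 12.28, 12.59 and 12.18 in thymus labelled transgenic and 12.10, 11.98 and 11.94 in wild-type thymus, at least 82.1-fold lower in line 3 than the mean of the other lines. Line 3 was the lowest of the 9 arrays, and a dimmer Aqp11 probe also read lowest there, at 4.51 in line 3, 6.28 in line 175 and 6.98 in line 261. Ets2 was detected everywhere, with 10.10 in line 3, 12.81 in line 175 and 12.78 in line 261, against 9.99, 10.19 and 10.71 in thymus labelled transgenic and 11.47, 11.51 and 11.45 in wild-type thymus. Arpp21, Satb1, Themis and Cd8b1 of the same list differed by -1.90, -1.39, -1.06 and -1.03, below the threshold but in the same direction. Cd69, an activation marker, differed by 2.46 from the mean, with 8.42 in line 3, 4.43 in line 175 and 7.49 in line 261, so the other lines did not agree on it.

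Cd44 and Lyl1, genes of stem cells and early progenitors, were higher in line 3. Of 6 measured genes in that list, these 2 were higher and 0 lower, with a median of 1.25. A further 15 genes on the array, Lmo2, Kit and Nfe2 among them, were detected in no line. Kit had 4.42 in line 3, against 12.01, 13.05 and 10.82 in thymus labelled transgenic and 10.63, 9.68 and 9.96 in wild-type thymus. Nfe2 had 4.85 in line 3, against 12.56, 13.07 and 12.085 in thymus labelled transgenic and 9.36, 9.48 and 9.545 in wild-type thymus. Others of the 15, such as Hoxa9 and Mycn, were low in thymus as well. Cd44, the hyaluronan receptor of early progenitors and activated T cells, had 10.21 in line 3, 4.56 in line 175 and 4.65 in line 261, against 8.64, 8.08 and 7.99 in thymus labelled transgenic and 9.37, 9.56 and 9.78 in wild-type thymus. Line 3 was the highest of the 9 arrays and at least 24.6-fold above the mean of the other lines. A second Cd44 probe read 8.15 in line 3, 4.68 in line 175 and 5.43 in line 261, and 7 more Cd44 probes were undetected in every line.

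Lyl1, a basic helix-loop-helix partner of LMO2, had 8.59 in line 3, 5.16 in line 175 and 4.94 in line 261, against 9.98, 11.63 and 10.17 in thymus labelled transgenic and 7.16, 6.87 and 7.03 in wild-type thymus. It was at least 8.06-fold above the mean of the other lines, above all wild-type arrays and below all arrays labelled transgenic. Hhex, a homeobox factor of progenitors, had 7.62 in line 3, 5.53 in line 175 and 6.38 in line 261, against 11.54, 12.12 and 11.79 in thymus labelled transgenic and 8.50, 8.05 and 8.66 in wild-type thymus. It was not a member, since it exceeded line 175 by 2.08 and line 261 by 1.23, and all lines lay below all thymus arrays. The other measured genes of the list, Cpa3, Cd93 and Bmi1, differed by 0.84, 0.40 and -0.21. In line 3 Cpa3 was 5.67 and Cd93 6.03, both below all thymus arrays, whose lowest values were 8.61 and 8.62.

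The Lmo2 probe was detected in no line, at 4.46 in line 3, 4.99 in line 175 and 4.40 in line 261, against 7.31, 6.57 and 5.70 in thymus labelled transgenic and 8.32, 8.37 and 8.58 in wild-type thymus. The samples labelled transgenic were thus lower than wild type for this probe. The position of the probe relative to the transgene is not known here, so it checks neither the labels nor the level of the transgene. Of 13 measured LMO2 complex partners, 1 was higher in line 3 (Lyl1) and 0 lower, with a median of -0.31. Ldb1, the adaptor that LMO2 binds, was 12.66 in line 3, 12.31 in line 175 and 12.79 in line 261, and Gata3, a GATA factor of T cells, was 10.46, 10.93 and 11.15 in the same order of lines. Tal1, Tal2, Gata1, Gata2, Lmo1 and Ldb2 were detected in no line. E proteins and their Id inhibitors held 0 members among 6 measured genes, with a median of -0.13, and Id3, an inhibitor of E proteins, had 9.36 in line 3, 7.91 in line 175 and 7.33 in line 261.

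Few cell cycle regulators passed the threshold. Of 21 measured cell cycle genes, 1 was higher and 1 lower in line 3, with a median of -0.21. Ccnd2 (cyclin D2) had 10.59 in line 3, 4.74 in line 175 and 4.45 in line 261, against 11.94, 11.07 and 8.34 in thymus labelled transgenic and 11.92, 12.12 and 12.39 in wild-type thymus. Ccnd3 (cyclin D3) had 10.62 in line 3, 13.71 in line 175 and 13.18 in line 261, against 13.09, 13.02 and 13.51 in thymus labelled transgenic and 13.12, 12.77 and 12.94 in wild-type thymus. Line 3 thus had the lower cyclin D3 and at least 32.1-fold more cyclin D2 than the mean of the other lines. Cyclin D2 was undetected in the other lines and present in all thymus samples, and 2 further Ccnd2 probes were past the threshold in the same direction. Ccnd1 (cyclin D1) was 5.70 in line 3, 5.84 in line 175 and 11.39 in line 261. The replication and mitosis genes Mcm6, Aurka, Top2a and Plk1 differed by -0.03, 0.07, 0.29 and -0.08. Others of the list differed more without passing the threshold. E2f1, Cdk2, Ccne2, Mcm2 and Cdk4 differed by -1.13, -1.08, -1.01, -0.94 and -0.83, and Ccne1 and Cdk6 by 0.47 and 0.45.

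Cdkn1a encodes p21, a cyclin-dependent kinase inhibitor activated by p53. Its level was 4.71 in line 3, 11.04 in line 175 and 10.48 in line 261, against 6.67, 5.12 and 5.52 in thymus labelled transgenic and 8.33, 8.64 and 8.80 in wild-type thymus. Line 3 was the lowest of the 9 arrays and at least 36.6-fold below the mean of the other lines, which each exceeded all thymus arrays, and 2 more Cdkn1a probes passed the threshold in the same direction. It was the 1 member among 7 measured CDK inhibitors, whose median was -0.97, and Cdkn1c and Cdkn1b differed by -2.21 and -1.31. Cdkn2a, the locus of p16 and ARF, was similar at 11.66 in line 3, 12.11 in line 175 and 12.04 in line 261. Of 13 measured p53 targets 2 were lower, with a median of 0.12. The second was Fas, a death receptor, at 6.34 in line 3, 8.64 in line 175 and 9.19 in line 261, against 7.08, 7.82 and 8.46 in thymus labelled transgenic and 7.77, 7.64 and 7.70 in wild-type thymus.

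In the BCL2 family 1 of 11 measured genes was higher in line 3 and 0 lower, with a median of -0.46. This was Mcl1, a survival factor of thymocytes and lymphocytes, with 13.76 in line 3, 11.03 in line 175 and 10.90 in line 261, against 11.86, 12.42 and 11.71 in thymus labelled transgenic and 11.96, 12.06 and 12.03 in wild-type thymus. Line 3 was above every other array, and lines 175 and 261 were below all thymus arrays. Bcl2l1 (BCL-XL), another survival factor, and Bmf, a death-promoting member, differed by -2.03 and -2.198 from the mean without being past the threshold against both lines.

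The largest differences towards line 3 joined genes of unlike function. Mt1, a metallothionein that binds zinc and copper, had 12.05 in line 3, 4.42 in line 175 and 4.42 in line 261, against 7.20, 6.63 and 5.13 in thymus labelled transgenic and 7.15, 6.78 and 6.78 in wild-type thymus. It was at least 88.3-fold above the mean of the other lines and also above all thymus arrays. Tmbim4, a membrane protein, had 11.29 in line 3, 4.59 in line 175 and 4.63 in line 261, against 10.41, 10.01 and 9.01 in thymus labelled transgenic and 11.21, 11.52 and 11.27 in wild-type thymus, so the other lines were the ones apart from thymus. Tmem100, a membrane protein best known from blood vessels, had 10.85 in line 3, 4.80 in line 175 and 5.06 in line 261, against 4.96, 5.08 and 5.23 in thymus labelled transgenic and 5.28, 4.79 and 4.90 in wild-type thymus. Here line 3 alone was high, and a second, dimmer Tmem100 probe read 6.85 in line 3, 4.65 in line 175 and 4.88 in line 261.

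Some of the genes high in line 3 were high in thymus labelled transgenic and not in wild type. Tbx4, a T-box factor known from limb and lung development, had 10.65 in line 3, 4.58 in line 175 and 4.61 in line 261, against 11.63, 8.65 and 11.004 in thymus labelled transgenic and 4.48, 4.55 and 5.003 in wild-type thymus. Rpl3l, a ribosomal protein known from muscle, had 10.06 in line 3, 5.25 in line 175 and 4.67 in line 261, against 10.49, 10.62 and 11.67 in thymus labelled transgenic and 5.72, 5.504 and 5.93 in wild-type thymus. For both, line 3 was above all wild-type arrays and the other lines were undetected. Wild-type thymus was undetected for Tbx4 and dim but detected for Rpl3l. Reln, which encodes the secreted protein reelin, split the samples labelled transgenic, with 9.93 in line 3, 4.52 in line 175 and 4.67 in line 261, against 4.83, 9.06 and 10.74 in thymus labelled transgenic and 4.88, 4.88 and 4.75 in wild-type thymus. Over all measured genes, every array labelled transgenic exceeded every wild-type array by more than 2 units at 33 genes (0.336%). Of these, 4 were higher in line 3 (Lyl1, Rpl3l, Sytl2 and Tbx4) and 3 lower (Aldh1b1, Esm1 and a, the agouti gene).

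Immediate early genes, which respond quickly to growth signals, were higher for 2 of 11 measured genes of a list that also holds heat shock genes, with 0 lower and a median of 0.63. Fos had 10.88 in line 3, 4.59 in line 175 and 6.46 in line 261, against 10.07, 10.15 and 11.13 in thymus labelled transgenic and 8.74, 9.09 and 10.16 in wild-type thymus. Fosb had 10.03 in line 3, 4.83 in line 175 and 5.89 in line 261, against 5.85, 7.33 and 7.42 in thymus labelled transgenic and 4.94, 5.33 and 6.48 in wild-type thymus. Fos in line 3 was at the thymus level and Fosb above it.

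The Y-linked genes Eif2s3y, a translation factor gene, and Kdm5d, a histone demethylase gene, were both higher in line 3. Eif2s3y had 9.92 in line 3, 4.43 in line 175 and 4.52 in line 261, against 4.42, 4.55 and 10.45 in thymus labelled transgenic and 9.80, 10.30 and 10.30 in wild-type thymus. Eif2s3y was detected in line 3, in 1 sample labelled transgenic and in the 3 wild-type samples, and not in lines 175 and 261. Of 4 measured genes placed on the Y chromosome, these 2 were higher in line 3 and 0 were lower. Uty, another Y-linked gene, was dim but detected in all lines, at 6.18 in line 3, 5.76 in line 175 and 5.99 in line 261. Its difference was 0.31. Xist, the RNA of the inactive X chromosome, read 4.55 in line 3, 5.75 in line 175 and 4.41 in line 261, against 12.89, 11.66 and 4.55 in thymus labelled transgenic and 4.45, 4.54 and 4.51 in wild-type thymus. Sex is not in the labels, so differences between the lines and differences of sex cannot be told apart where a gene depends on it.

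Pou2af1, a coactivator of octamer-binding factors known from B cells, had 12.87 in line 3, 8.64 in line 175 and 6.74 in line 261, against 9.53, 10.07 and 8.63 in thymus labelled transgenic and 9.24, 8.80 and 9.23 in wild-type thymus. It was detected on all 9 arrays and highest in line 3. S100a11, a calcium-binding protein, had 9.55 in line 3, 4.66 in line 175 and 4.78 in line 261, against 12.85, 13.16 and 12.07 in thymus labelled transgenic and 12.73, 12.49 and 12.64 in wild-type thymus, so that line 3 was between the other lines and thymus. Slc12a2, a sodium, potassium and chloride cotransporter, Ryk, a receptor of WNT proteins, and Ybx3, a cold shock domain protein, were at least 27.1-fold, 34.2-fold and 18.3-fold higher in line 3 than the mean of the other lines. Cibar1, Arap2, H2-Q2, Smco4, Scamp1, Bahcc1 and Adap1 completed the 20 largest, with differences from the mean of 4.83 to 5.67. H2-Q2 belongs to a family of near-identical genes, so its probe may read relatives.

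**Figure D3:**
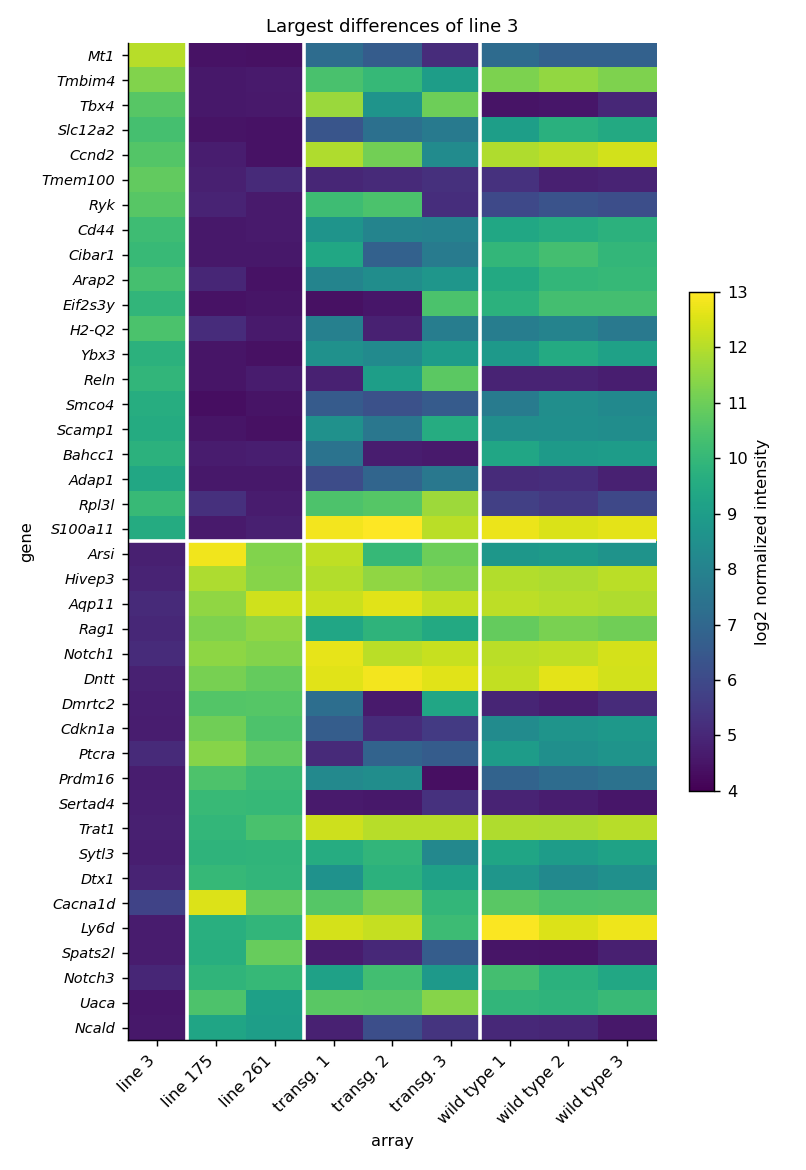
Log2 normalized intensity (colour) of the 20 genes with the largest excess in line 3 (above the white line) and the 20 with the largest deficit (below it), ranked by the difference from the nearer of the other lines, on each of the 9 arrays. Genes with clone, predicted or locus names, or undetected on an array of the higher side, were left out of the ranking. Line 3 is dark in the lower block where lines 175 and 261 and most thymus arrays are bright, and Tmem100 is bright in line 3 alone.

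Among the largest deficits of line 3, Arsi, a sulfatase, had 4.79 in line 3, 12.80 in line 175 and 11.29 in line 261, against 12.14, 10.03 and 11.02 in thymus labelled transgenic and 8.76, 8.92 and 8.63 in wild-type thymus. Hivep3, a zinc finger protein that takes part in gene regulation in lymphocytes, had 4.91 in line 3, 11.90 in line 175 and 11.38 in line 261, against 11.96, 11.49 and 11.29 in thymus labelled transgenic and 11.95, 11.90 and 12.08 in wild-type thymus. Trat1, an adaptor of the T cell receptor complex, had 4.80 in line 3, 9.96 in line 175 and 10.42 in line 261, against 12.32, 12.03 and 12.04 in thymus labelled transgenic and 11.91, 11.89 and 12.04 in wild-type thymus. All 3 were detected in thymus and in the other lines and not in line 3, at least 89.0-fold, 67.3-fold and 24.6-fold below the mean of the other lines.

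Ly6d, a surface protein of lymphoid progenitors, had 4.67 in line 3, 9.67 in line 175 and 9.91 in line 261, against 12.43, 12.20 and 10.16 in thymus labelled transgenic and 12.94, 12.52 and 12.77 in wild-type thymus. Sytl3, a regulator of vesicle transport, Cacna1d, a calcium channel subunit, and Uaca had the same arrangement, with line 3 below all the other arrays. Other deficits had no counterpart in normal thymus. Dmrtc2, a gene of the doublesex family known from testis, had 4.75 in line 3, 10.61 in line 175 and 10.62 in line 261, against 7.24, 4.64 and 9.34 in thymus labelled transgenic and 4.94, 4.75 and 5.12 in wild-type thymus. Sertad4 had 4.74 in line 3, 10.08 in line 175 and 10.02 in line 261, against 4.65, 4.56 and 5.28 in thymus labelled transgenic and 4.88, 4.72 and 4.55 in wild-type thymus. For these, and likewise for Spats2l and the calcium sensor gene Ncald, line 3 was near wild-type thymus and lines 175 and 261 were apart. Prdm16, a regulator of stem cells and brown fat, had 4.71 in line 3, 10.49 in line 175 and 10.14 in line 261, against 8.23, 8.40 and 4.36 in thymus labelled transgenic and 6.85, 7.18 and 7.41 in wild-type thymus.

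Genes of T cell function showed scattered deficits. Of 14 measured genes of mature T cells 2 were lower in line 3 and 0 higher, with a median of -1.05. Cd6, a T cell adhesion receptor, had 6.59 in line 3, 8.78 in line 175 and 10.64 in line 261, against 12.11, 12.24 and 12.32 in thymus labelled transgenic and 11.53, 11.44 and 11.65 in wild-type thymus. Ctla4, an inhibitory receptor, had 4.65 in line 3, 8.02 in line 175 and 7.03 in line 261, against 6.74, 6.31 and 5.15 in thymus labelled transgenic and 9.02, 9.61 and 9.27 in wild-type thymus. Both were lowest in line 3. T cell receptor signalling held 0 members of 14 measured genes, with a median of -0.20, and its largest differences were those of the kinase gene Fyn, -1.27, and the receptor chain gene Cd247, -1.25.

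Of 20 measured cytokine receptors and their partners 2 were lower in line 3 and 0 higher, with a median of -0.35. Socs3, a feedback inhibitor of cytokine signalling, had 5.85 in line 3, 8.99 in line 175 and 9.96 in line 261, against 9.12, 8.43 and 7.30 in thymus labelled transgenic and 8.90, 9.38 and 9.12 in wild-type thymus. Il27ra, the interleukin 27 receptor, had 7.61 in line 3, 10.07 in line 175 and 10.25 in line 261, against 10.78, 10.91 and 10.19 in thymus labelled transgenic and 10.85, 10.80 and 11.02 in wild-type thymus. In both cases line 3 was the lowest of the 9 arrays and the other lines lay near the thymus level. Il7r, the interleukin 7 receptor of early T cells, was 5.23 in line 3, 9.48 in line 175 and 4.84 in line 261, and so followed another division of the lines.

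Isg15, Igtp and H2-T10, genes of the interferon response and of MHC class I, were lower in line 3. Isg15, a ubiquitin-like protein, had 6.13 in line 3, 8.45 in line 175 and 8.46 in line 261, and Igtp, an interferon-induced GTPase, had 6.79 in line 3, 8.79 in line 175 and 9.24 in line 261. They were the 2 members, both lower, of 12 measured interferon response genes, whose median was -0.24. H2-T10, a nonclassical MHC class I gene, was the 1 member in a fixed list of MHC class I genes, of which 13 were measured. It had 8.08 in line 3, 12.43 in line 175 and 11.63 in line 261, against 9.82, 9.45 and 10.82 in thymus labelled transgenic and 10.34, 10.58 and 10.41 in wild-type thymus. It too belongs to a family of near-identical genes, and the list median was -0.48. Outside the list, the class I genes H2-Bl and H2-T18 were members lower in line 3, and H2-Q2 was a member higher in line 3. The classical class I genes H2-D1 and H2-K1 differed the other way from H2-T10 without passing the threshold. H2-D1 had 11.84 in line 3, 10.14 in line 175 and 9.28 in line 261, a difference of 2.13, and H2-K1 had 7.46 in line 3, 5.59 in line 175 and 5.43 in line 261, a difference of 1.95.

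Metabolic lists held few members. Over all measured genes the median difference was -0.01. Glycolysis (13 measured, median 0.53) and MYC targets with ribosome biogenesis (16 measured, median 0.42) held 0 members each, and Pfkp, a phosphofructokinase, and Bop1, a ribosome assembly factor, differed by 1.47 and 1.16. Of 16 measured genes of the amino acid response 2 were lower, with a median of -0.16. Chac1, a glutathione-degrading enzyme, had 7.58 in line 3, 10.49 in line 175 and 11.36 in line 261, against 4.61, 4.47 and 4.75 in thymus labelled transgenic and 5.17, 4.67 and 4.56 in wild-type thymus. Slc7a11, a cystine transporter, had 7.54 in line 3, 10.76 in line 175 and 9.93 in line 261, against 5.74, 5.82 and 5.16 in thymus labelled transgenic and 5.07, 5.04 and 4.98 in wild-type thymus. Both were above all thymus arrays in every line and lower in line 3 than in the other lines. Cholesterol synthesis had 1 member of 14, Mvk (mevalonate kinase), lower, with a median of -0.24.

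Among 16 measured T cell leukaemia tumour suppressors there were 0 members and a median of 0.04. The T lineage transcription factors had 1 member, Ets2, of 20, with a median of -0.07, and homing and adhesion genes 1, Cd44, of 20, with a median of -0.21. The Gimap GTPase family had 0 of 6, with a median of -0.19, and 1 gene of the Hoxa cluster, Hoxa13, was measured, with a difference of 0.27.

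**Figure D4:**
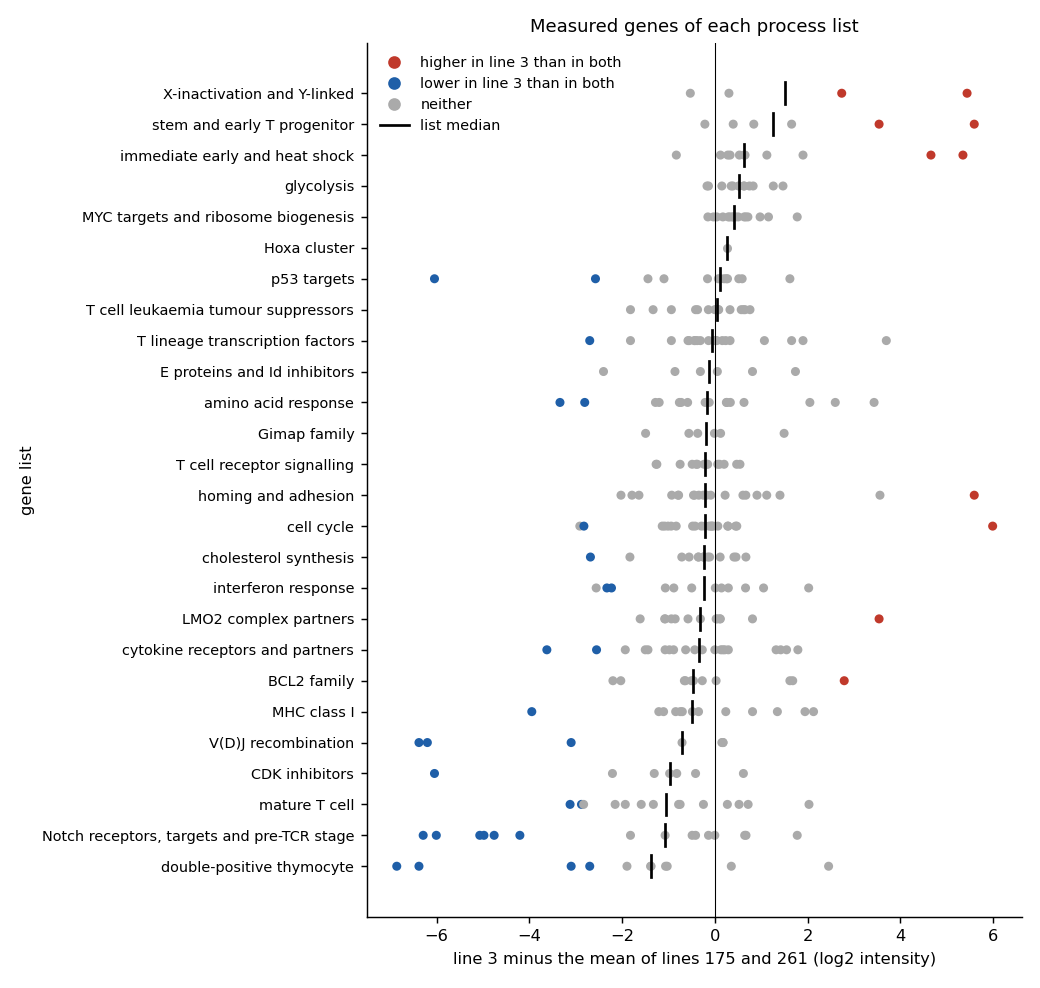
Difference of line 3 from the mean of lines 175 and 261 in log2 normalized intensity (x axis) for every measured gene of each process list (y axis), with lists ordered by their median (black bar). Red and blue points are past the threshold against both lines, and 6 of the 15 points of the Notch list are blue while the T cell receptor signalling, glycolysis and MYC target lists hold grey points only.

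Markers of other cell types were detected in the lines to differing extents. Of 17 macrophage and granulocyte genes on the array 0 were detected in line 3, 0 in line 175 and 0 in line 261, and the mean log2 level of the list was 4.71, 4.68 and 4.73, against 6.15 to 6.49 in thymus labelled transgenic and 6.40 to 6.71 in wild-type thymus. The counts in line 3, line 175 and line 261 were 1, 2 and 2 of 16 for NK and cytotoxic cells and 2, 2 and 2 of 12 for MHC class II antigen-presenting cells. They were 2, 2 and 4 of 10 for B cells, in which Cd79b, Ms4a1, Pax5 and Cd22 were undetected in every line, and 4, 4 and 5 of 12 for fibroblasts and endothelium, in which Col1a1, Col1a2, Col3a1, Vwf and Thbd were undetected in every line. Of that list Fbln1, a matrix protein gene, had 11.76 in line 3, 10.52 in line 175 and 11.30 in line 261, and Pecam1, an adhesion molecule gene, had 8.76 in line 3, 8.21 in line 175 and 9.16 in line 261. For 9 gamma delta and innate-like T cell genes the counts were 0, 2 and 4, for 9 mast cell and basophil genes 2, 1 and 0, for 11 thymic epithelial genes 1, 1 and 1, and for 11 erythroid and megakaryocyte genes 1, 3 and 4. The thymic epithelial gene detected was Ccl25, at 10.07 in line 3, 8.395 in line 175 and 8.64 in line 261. The members in these lists were Pou2af1, higher, and Il17rb, H2-Ab1, Dcn and Pdgfrb, lower. H2-Ab1, an MHC class II chain, had 5.71 in line 3, 9.38 in line 175 and 8.73 in line 261, with its partner chain H2-Aa undetected in all lines. Cd3e, the T cell receptor subunit, was detected in all lines, at 12.58 in line 3, 12.61 in line 175 and 12.83 in line 261.

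The threshold used no thymus values, but the choice of 1 probe per gene took the mean over all 9 arrays, and 335 of the 347 genes stayed members when the probe was chosen on the lines alone. Of the 190 genes higher in line 3, 148 were detected on all 3 wild-type thymus arrays and 10 on none of the 6 thymus arrays. Line 3 lay nearer than the mean of the other lines to the wild-type mean for 105 of them (55.3%), against 50.4% of all measured genes. Counted over probes, the share was 168 of 337 (49.9%), against 49.8% of all probes detected in at least 1 line. Line 3 was the highest of the 9 arrays at 111 of the 190, against 18.9% of all measured genes, and exceeded all 6 thymus arrays by more than 2 units at 35. At 49 of the 190, all 6 thymus arrays were instead more than 2 units above both other lines. Of the 157 genes lower in line 3, 118 were detected on all 3 wild-type arrays and 9 on none of the 6 thymus arrays, and line 3 was nearer to the wild-type mean for 63 (40.1%). It was the lowest of the 9 arrays at 117 of the 157, against 12.3% of all measured genes. All 6 thymus arrays were more than 2 units above line 3 at 57 of these genes, among them Notch1, Notch3, Hes1, Dtx1, Rag1, Dntt, Aqp11, Ccnd3 and Trat1, and both other lines were more than 2 units above all thymus arrays at 23, among them Hey1, Chac1, Slc7a11 and Sertad4. The choice of members favours extreme values of line 3, so these shares and counts describe the lists only. For the counts of genes detected in thymus or more than 2 units apart, no share over all measured genes was computed. Those counts therefore do not show how members differ from other genes.

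Some member genes were neighbours in the genome. Among 9829 measured genes placed by RefSeq (GRCm38.p6), 46 member genes formed 20 runs of neighbouring measured genes that were past the threshold in the same direction, 12 higher and 8 lower. Of these runs 17 were pairs, such as Lyl1 with Nfix, higher, and Notch1 with Egfl7, Rag2 with Rag1 and Cdkn1a with Rab44, lower. Members were 1.93% (higher) and 1.6% (lower) of all measured genes. How many runs such shares would give at random places was not computed. The longest run had 6 genes, Ecm1, Tars2, Rprd2, Prpf3, Mrps21 and Ciart on chromosome 3, all higher in line 3, and Ensa, Mcl1 and Aph1a beside it were members as well.

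In this run Ecm1, an extracellular matrix protein, had 11.05 in line 3, 7.10 in line 175 and 6.57 in line 261, against 9.10, 8.87 and 8.15 in thymus labelled transgenic and 7.47, 7.24 and 7.24 in wild-type thymus. Ciart, a repressor of the circadian clock, had 10.66 in line 3, 6.74 in line 175 and 6.58 in line 261, against 6.07, 6.21 and 5.90 in thymus labelled transgenic and 5.76, 6.45 and 6.58 in wild-type thymus. Prpf3, a splicing factor, had 13.68 in line 3, 11.25 in line 175 and 10.74 in line 261, against 10.64, 11.25 and 10.80 in thymus labelled transgenic and 10.95, 10.87 and 10.76 in wild-type thymus. Line 3 was above every other array for all 3 genes, and lines 175 and 261 were near wild-type thymus.

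The excess of line 3 went beyond the run. From Ensa to Ttf2, limits chosen after the values were seen, 51 genes were measured, with a median difference of 1.44 log2 units, and 12 were past the threshold, all higher. Line 3 was the highest of the 9 arrays at 37 of the 51, against 18.9% of all measured genes. In the 12 measured genes before Ensa the median was 0.05 and line 3 was highest at 2, and in the 12 after Ttf2 the median was 0.72 and line 3 was highest at 7. Of the 9 histone genes within the stretch, line 3 was highest at H4c14, H2ac18, H2bc18 and H2ac19, with differences of 1.88, 1.76, 1.37 and 1.19. It was not highest at H2ac20, H3c13, H3c14, H2bc21 and H2ac21, which differed by 0.13, 0.07, 0.04, -0.13 and -0.57, nor at BC028528, which differed by -2.29. The other genes at which it was not highest were Txnip (1.39), Bcl9 (0.52), Anp32e (0.30), Hsd3b2 (0.07), 6330549D23Rik (0.003), Trim45 (-0.13), Cd160 (-0.26) and Tent5c (-0.495).

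**Figure D5:**
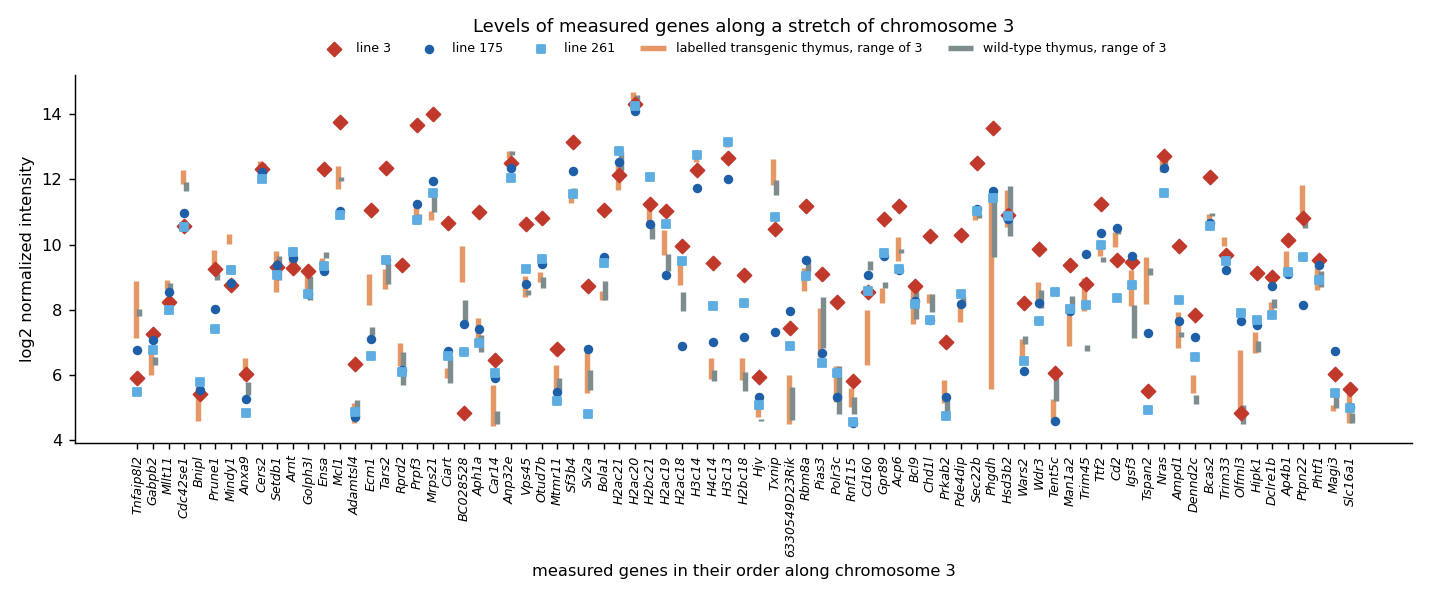
Log2 normalized intensity (y axis) of measured genes in their order along chromosome 3 (x axis, evenly spaced), with symbols for line 3, line 175 and line 261 and bars for the range of 3 thymus samples labelled transgenic and 3 wild-type samples. From Ensa to Ttf2 the symbols of line 3 lie above all others at 37 of 51 genes, and in the 12 genes before Ensa at 2.

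Near the threshold the choice of members is narrow. Just inside were Cgas, with 10.52 in line 3, 8.51 in line 175 and 4.55 in line 261, and Apobec3, with 9.08, 6.93 and 7.08 in the same lines, both higher, and Nfkbie (7.70, 9.80 and 9.70) and Igtp, both lower. Just outside were Dcxr (8.43, 6.43 and 5.86) and Ctnnal1 (7.83, 5.85 and 5.86), higher, and Slc5a9 (4.661, 10.002 and 6.652) and Il17re (4.71, 6.70 and 7.94), lower. Another probe of the same gene was detected in a line for 87 of the 190 higher genes and passed the threshold in the same direction for 51. For the 157 lower genes it was detected for 62 and passed for 31, and for 0 member genes did another probe differ by more than 1 unit in the opposite direction.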

How the data were processed

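Per the file headers, the deposited tables give for 45281 probes an intensity, a normalized value and a detection p-value on each of 9 arrays. The authors' normalized values are log2 intensities, as their range and their order against the deposited intensities show. The submitters' processing notes name BeadStudio and limma, without function, setting or version. The deposited intensity values were used for alternatives only, and the deposited detection p-value, which compares a probe with negative control beads, for the filter at 0.05. The series value table equals the normalized table, with a largest difference of 0.

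Differences were computed in Python 3.11.15 (pandas 2.3.3) and the alternatives with limma 3.58.1 under R 4.3.3. The platform annotation gives 1 symbol for 34885 probes, several for 18 and none for 10378, and 34807 entries matched RefSeq by Entrez identifier with 0 symbols changed. The 94 member probes without 1 symbol are counted among probes only. A gene is represented by its detected probe with the highest mean over the 9 arrays. The code of the rule for members was run on simulated data with little noise and planted differences larger than the threshold. That run checks the code and gives no error rate for the members found here. Arrays were assigned from the sample titles. No test was made, since each line has 1 array, and the number of arrays limits the precision.

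Named genes are Lyl1, Hhex, Cd44, Notch1, Rag1, Ptcra and Lmo2, the 20 largest differences in each direction from the nearer of the other lines, every member of a gene list, and up to 2 genes of a list with no member. The 20 were taken among member genes detected on every array of the higher side, without clone, predicted or locus names. Further list genes, neighbours on chromosome 3 and genes at the threshold were named after their values were seen, and so was the TGGGAA motif chosen. The members and lists were chosen with earlier results of these data known. Neither slide nor scan is recorded in the labels or headers used.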

Additional observations from a re-analysis of the deposited data

How the results depend on the processing

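Requiring more than 1 log2 unit gave 504 genes higher and 515 lower in line 3 (939 and 871 probes), and more than 3 units gave 99 and 64 genes (154 and 96 probes). Taking the difference from the mean of lines 175 and 261 with no agreement between them gave 287 genes higher and 277 lower, and 423 probes lower. After normexp correction with neqc at an offset of 50 the counts were 105 and 75 genes (164 and 113 probes), and after quantile normalization with no background correction 56 and 38 genes (90 and 51 probes). Both settings compress low intensities by construction. Leaving out line 175 or line 261 gave 331 genes higher in each case and 298 to 349 lower, and 548 to 567 probes higher and 466 to 571 lower. With neqc at an offset of 16, 306 of the 347 member genes stayed past the threshold in the same direction, with an offset of 50 178 did and without background correction 94 did, and 0 were past it in the opposite direction under any of these. Of 609 values of 87 named genes under alternatives, 41 crossed the threshold of membership and 0 values of member genes changed sign. The share of member probes nearer to wild-type thymus in line 3, 45.6%, ranged from 44.6% to 45.5% without 1 wild-type array. It was 49.9% for the higher and 39.8% for the lower member probes, against 49.8% of all probes detected in at least 1 line. No paired analysis was possible because each line has 1 array and no result comes from a test. Undetected sides limit most fold changes to bounds, and a difference between lines cannot be told from a difference between cultures or arrays.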

Other observations

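Differences between line 3 and the other lines also varied by chromosome. The median difference of line 3 from the mean of lines 175 and 261 was highest on chromosomes 14 (0.18 over 335 genes), 11 (0.18 over 879), 15 (0.18 over 416) and 3 (0.18 over 479) and lowest on chromosomes 6 (-0.26 over 476) and 4 (-0.21 over 618), among the autosomes and the X chromosome. Line 3 was the highest of the 9 arrays at 34.1% of the genes of chromosome 11, against 10.7% of those of chromosome 6 and 18.9% of all measured genes. On chromosome 3 there were 21 member genes higher and 4 lower of 479 measured. On chromosome 9 there were 19 and 4 of 566, and on chromosome 17 there were 7 and 16 of 515. Over all 9836 measured genes 190 were higher (1.93%) and 157 lower (1.6%). On chromosome 3, 12 of the 21 lay in the stretch from Ensa to Ttf2 described above.

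Some genes separated the lines in another way. Tox, a factor of T cell development, was 11.24 in line 3, 5.27 in line 175 and 9.82 in line 261. Asns, asparagine synthetase, was 12.21 in line 3, 4.51 in line 175 and 13.03 in line 261, and Cd81, a tetraspanin, was 12.08, 4.67 and 12.36 in the same lines. Line 175 stood alone at these genes.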
